A study of Mus musculus with 9 samples.

Results

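The circRNAs described here are those made from kinesin genes in the embryonic mouse cortex. They were chosen as all entries of the count table whose parental gene symbol begins with Kif and a digit, and 31 of 5281 circRNAs, from 16 genes, met this criterion. The parental gene was the one given in the catalogue of the study for 10 of them and the same-strand annotated gene that contains the circRNA for the other 21. Kif21b and Kif26b were singled out with their values known, so that their levels are given as a description and without a test, whereas the circRNAs of the other 14 Kif genes were tested within a model of the whole table. The study asked how circRNAs change along the neurogenic lineage. It sorted proliferative progenitors (PP, negative for RFP and GFP), differentiative progenitors (DP, positive for RFP only) and newborn neurons (N, positive for GFP with or without RFP) from the lateral cortex of E14.5 embryos, in 3 libraries per cell type. All mice were C57BL/6 and heterozygous for 2 reporters, RFP driven by Btg2, which is switched on in progenitors about to differentiate, and GFP driven by Tubb3, a tubulin gene of neurons, so that each cell type is defined by reporter fluorescence alone.

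Kinesins are motor proteins that hydrolyse ATP in a conserved motor domain to walk along microtubules or to take them apart. One set builds the mitotic spindle, aligns chromosomes and completes cytokinesis in dividing cells, and another carries vesicles, mitochondria and endosomes along the axons and dendrites of neurons. A circRNA arises when a splice donor is joined backwards to an upstream acceptor, so that it holds internal exons of its gene but has no free ends and resists the exonuclease RNase R, with which all RNA was treated here.

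By role, 12 circRNAs came from 6 mitotic genes (Kif14, Kif15, Kif20a, Kif23, Kif2c and Kif4), 15 came from 7 genes of axonal and dendritic transport (Kif1a, Kif1b, Kif5c, Kif13b, Kif16b, Kif21a and Kif21b) and 4 came from Kif26b, Kif2a and Kif24. They are named by gene and by the number that the catalogue gives them. Of the 31, 30 began and ended at annotated exon ends, and their exons were wholly coding, with no base of an untranslated region. The exception, Kif1a 000435, was a single block within an intron of Kif1a.

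The backsplice junction is the only stretch of a circRNA that its linear mRNA lacks. The junctions of the circRNAs on which the results turn are shown as the last 20 bases of the last exon in lower case and the first 20 bases of the first exon in capitals, 5′ to 3′ on the strand of the gene, read from the mm9 genome. For Kif21b they lie at chr1:138041176-138041889 (000078, exons 2 to 3) and chr1:138045838-138047897 (000079, exons 8 to 9), and for Kif26b at chr1:180608957-180609490 (000202, exon 3) and chr1:180608957-180646100 (000203, exons 3 to 4), all on the + strand. Both circRNAs of Kif26b start at the same acceptor, so their capitals are identical and the lower-case part alone tells them apart.
Kif21b 000078: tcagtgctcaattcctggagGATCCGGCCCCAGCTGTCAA
Kif21b 000079: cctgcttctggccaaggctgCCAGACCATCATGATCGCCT
Kif26b 000202: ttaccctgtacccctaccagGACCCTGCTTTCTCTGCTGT
Kif26b 000203: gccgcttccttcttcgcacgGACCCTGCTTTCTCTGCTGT

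Of the mitotic genes, the junctions of Kif23 006679 (chr9:61767419-61772950, - strand, exons 16 to 21), Kif2c 004280 (chr4:116839486-116844990, - strand, exons 7 to 13), Kif15 006500 (chr9:122910163-122913811, + strand, exons 23 to 26) and Kif4 006968 (chrX:97829178-97834110, + strand, exons 3 to 6) are given in the same way, since these circRNAs had the most counts or were at 0 counts in every N library. Of the transport genes, Kif5c 003790 (chr2:49527272-49566388, + strand, exons 2 to 11) and Kif1b 004475 (chr4:148596336-148597517, - strand, exons 25 to 26) are given because they were called between N and PP.
Kif23 006679: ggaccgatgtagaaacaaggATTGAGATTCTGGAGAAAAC
Kif2c 004280: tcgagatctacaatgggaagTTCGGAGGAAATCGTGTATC
Kif15 006500: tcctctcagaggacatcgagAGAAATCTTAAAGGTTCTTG
Kif4 006968: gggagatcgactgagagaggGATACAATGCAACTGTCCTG
Kif5c 003790: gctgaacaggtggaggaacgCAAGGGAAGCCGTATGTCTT
Kif1b 004475: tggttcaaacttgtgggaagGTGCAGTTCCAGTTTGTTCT

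All 31 circRNAs had AG before the first base and GT after the last, which the detection of circRNAs by find_circ requires. Against the motor signatures found in the linear coding sequences, 9 of the 30 exonic circRNAs held at least 1 of the P-loop, switch I and switch II, the parts of the motor domain that bind and sense ATP. Kif5c 003790 and Kif4 006968 held all 3 of these signatures. The P-loop lay in 6 circRNAs, 2 of them mitotic (Kif2c 004280 and Kif4 006968), 3 of transport (Kif21b 000078, Kif21a 002231 and Kif5c 003790) and Kif24 004578. In Kif26b, an atypical kinesin known for its part in kidney development, none of the 3 signatures was found by these letters, and the circRNAs held codons 156 to 333 (000202) and 156 to 389 (000203) of 2112. The P-loop codons are shown in capitals, with 12 bases on either side, for the paralogues Kif21b and Kif21a and for a mitotic motor, and their first capital is base 218 of the circle of Kif21b and of Kif21a and base 27 of that of Kif4, counted from the first base of the first exon.
Kif21b 000078: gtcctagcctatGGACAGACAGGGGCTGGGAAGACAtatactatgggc
Kif21a 002231: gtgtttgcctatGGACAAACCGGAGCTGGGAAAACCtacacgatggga
Kif4 006968: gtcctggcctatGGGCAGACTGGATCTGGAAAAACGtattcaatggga

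**Figure D1:**
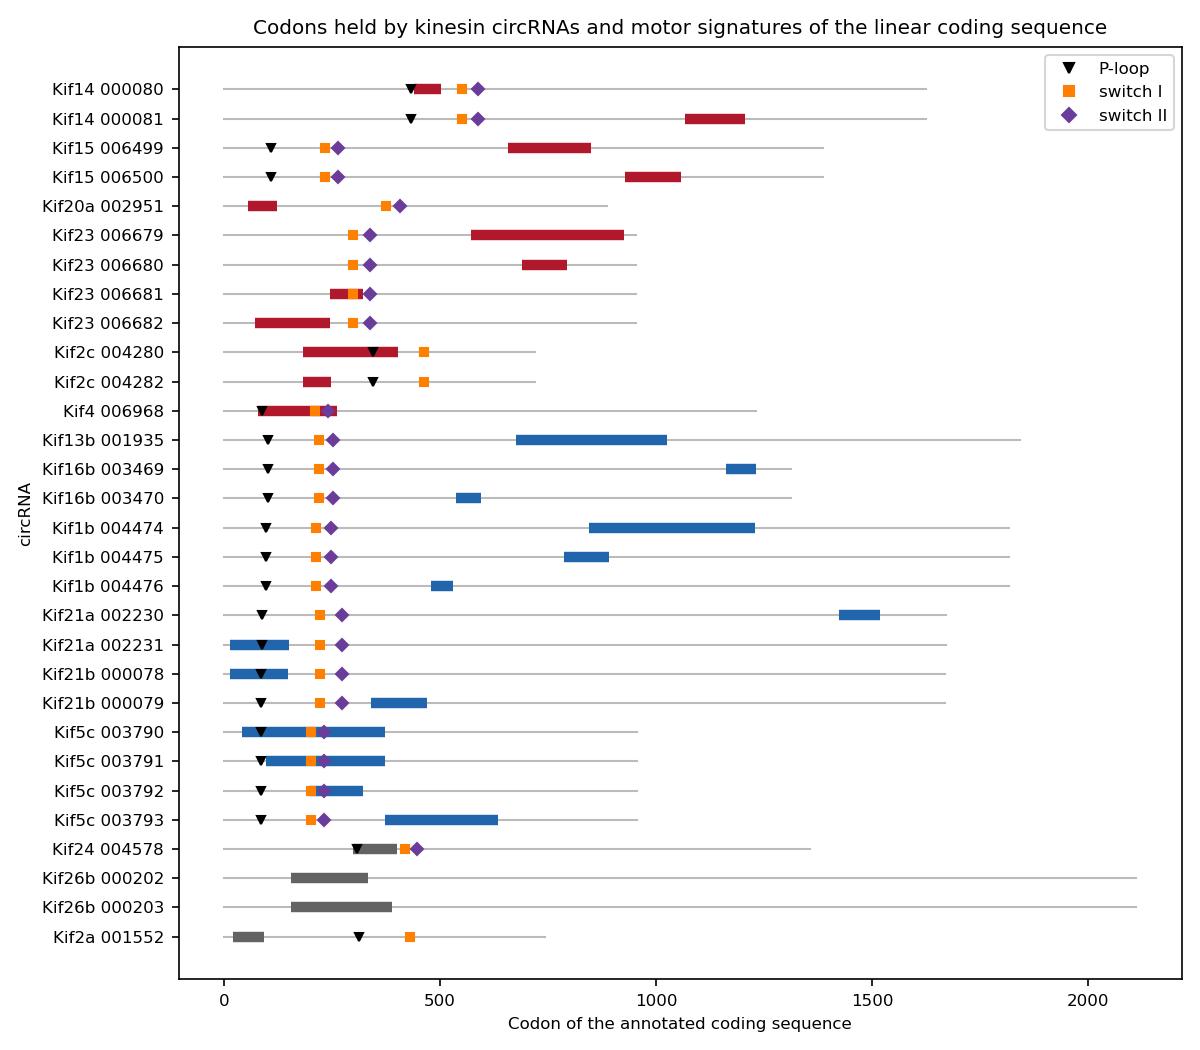
Position of the 30 exonic kinesin circRNAs in the annotated coding sequence of their gene. The x axis gives the codon, grey lines span each coding sequence, bars the codons held by the circRNA (red for mitotic, blue for transport, grey for other genes) and symbols the start of each motor signature that was found; the bars of 9 circRNAs cover at least 1 signature.

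The count table gives reads on the features of each circRNA and not only reads across the junction. Total counts were between 2962787 and 3959379 in the PP libraries, 6569620 and 8015311 in DP and 5772646 and 6759985 in N, of which the kinesin circRNAs took 268 to 933, 1875 to 2204 and 782 to 2448. PP replicate 3 and N replicate 1 were the shallowest once the libraries were scaled by TMM, with a median of 7 and 6 counts per circRNA against 12 to 27 in the others. Levels are given as CPM, the count scaled by these library sizes. A library with 0 counts of a circRNA could still hold up to 3 counts of it, which is 0.349 to 1.33 CPM in N. Intervals and such limits cover counting error only. As these are bulk libraries, fewer cells of a kind and less RNA per cell cannot be told apart.

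Summed per list, the markers of each cell type that had circRNAs followed the labels. The lists were chosen with earlier results of these data known, so that this is a description and not a test of the sort. The summed level of 4 of 12 PP markers (Fgfr2, Notch1, Notch2 and Ptprz1) was 259 to 411 CPM in PP, 95.9 to 127 in DP and 54.9 to 79.7 in N. That of 2 of 7 DP markers (Mfng and Tcf12) was 16.4 to 33.9, 43.4 to 49.9 and 5.93 to 15.9 CPM, and that of 3 of 12 N markers (Bcl11b, Dcc and Myt1l) was 5.45 to 16.7, 51.0 to 72.7 and 267 to 354 CPM. Among markers of other cells that the sort could hold, 2 of 9 interneuron genes (Erbb4 and Zfp536) had circRNAs, with 24.6 to 31.9 CPM in PP, 26.6 to 33.1 in DP and 19.9 to 40.7 in N. Gad1, Gad2, Lhx6 and the Dlx genes on that list had none among the 5281, and neither had any gene on the lists for endothelium, mural cells, microglia, oligodendrocyte precursors or blood. Those lists therefore do not test for these cells.

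**Figure D2:**
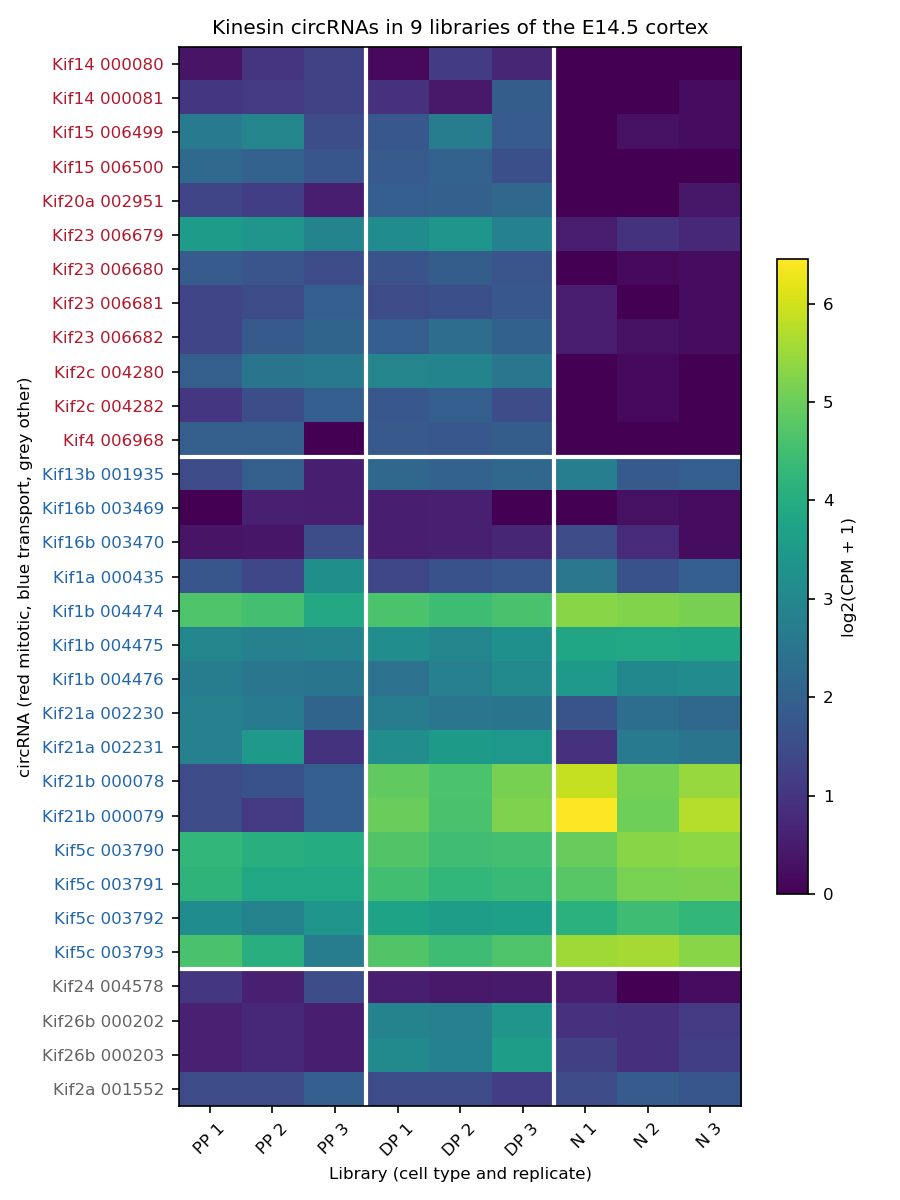
Levels of the 31 kinesin circRNAs, as log2(CPM + 1) by colour, in each of the 9 libraries (columns, 3 per cell type). Mitotic genes (red names) are dark in the 3 N libraries, Kif5c and Kif1b are brightest there, Kif21b is dark in PP alone, and Kif26b is bright in DP alone.

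Kif21b is a kinesin of the same family as Kif21a that moves along dendrites and restrains the growth of microtubules. Its circRNA 000078 had 7, 13 and 6 counts in the PP libraries, 250, 191 and 274 in DP and 132, 288 and 261 in N. This corresponds to 2.23 ± 0.499 CPM in PP, 28.6 ± 5.24 in DP and 44.9 ± 12.6 in N (SD, n = 3). Every DP and N library was above every PP library, while DP and N overlapped, the highest DP library being at 34.0 CPM and the lowest N library at 33.5.

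The other circRNA of Kif21b, 000079, was at 1.91 ± 0.833, 29.9 ± 6.48 and 57.1 ± 27.7 CPM (SD, n = 3) in PP, DP and N. Its N libraries ranged from 32.0 to 86.7 CPM and again overlapped those of DP. The step from DP to N was a log2 FC of 0.64 ± 0.31 (SE) for 000078 and 0.92 ± 0.38 for 000079, and it was the less firm of the steps. Without N replicate 1, the shallow library in which both were highest, it was 0.41 and 0.49, and with libraries scaled by total counts it was 0.14 and 0.28, although the latter scaling also moved the median of all circRNAs by -0.36. The step from PP to DP was 3.71 ± 0.38 (SE) for 000078, and leaving out any 1 library gave 3.58 to 3.86. The circRNAs share no exon.

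Both circRNAs of Kif26b were at 6.04 CPM or more in every DP library and at 1.33 CPM or less in every PP and N library. The longer 000203, with exons 3 and 4, had 2, 4 and 1 counts in PP, 66, 50 and 89 in DP and 3, 7 and 8 in N, which is 0.543 ± 0.0927, 8.22 ± 2.53 and 1.15 ± 0.293 CPM (SD, n = 3). The 3 DP libraries, at 7.47, 6.16 and 11.0 CPM, did not overlap with the other 6, the highest of which was at 1.33. Over summed counts, DP was above PP by 14.3-fold, with a 95% counting interval of 6.82 to 36.0. The log2 FC was 3.80 ± 0.45 (SE) from PP to DP and then fell by 2.90 ± 0.38 from DP to N. Each N library, at 0.813 to 1.33 CPM, was above each PP library, at 0.464 to 0.645, and over summed counts N was 1.85-fold above PP, with a counting interval of 0.738 to 5.24. These levels rest on 1 to 8 counts a library.

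The shorter 000202, with exon 3 alone, had 56, 49 and 75 counts in DP against at most 4 in a PP library and 7 in an N library. Its log2 FC of 3.62 ± 0.43 (SE) from PP to DP and its fall by 2.90 ± 0.37 from DP to N are not a second measurement of the gene. Exon 3 lies in both circRNAs, and in each of the 9 libraries the count of 000202 was at or below that of 000203. Summed over libraries 000202 held 203 counts and 000203 held 230, or 88.3%, where exon 3 makes up 76.1% of the counted length. In each PP library the counts of both were equal.

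**Figure D3:**
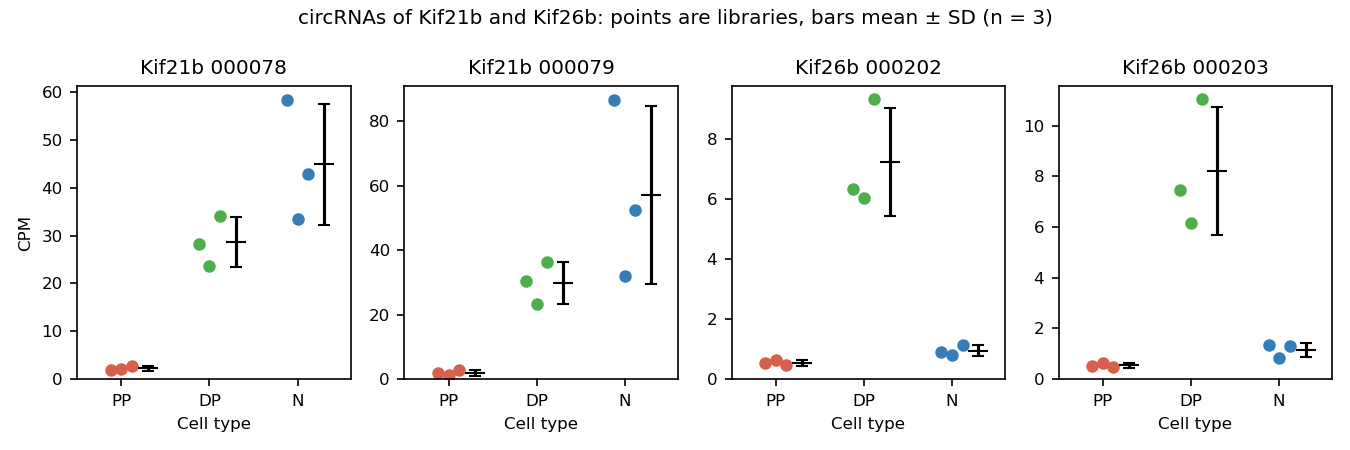
CPM of both circRNAs of Kif21b and both of Kif26b in each library (points) with the mean ± SD of 3 libraries (bars), by cell type on the x axis. Kif21b stands at 1.91 to 2.23 CPM in PP on average and at 44.9 to 57.1 in N, whereas Kif26b reaches 7.23 to 8.22 in DP alone.

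The exon structure around these circRNAs differed too. Both circRNAs of Kif26b follow an intron of 148035 bases and precede introns of 36443 (000202) and 105513 bases (000203), where the medians over the 5097 circRNAs with exon ends in the table were 7293 and 5455. For Kif21b the introns before and after were 12836 and 2185 bases (000078) and 519 and 722 bases (000079). Whether the length of these introns bears on the level was not tested.

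The divergent primers that the study designed for Kif26b can be placed on these circles. For 000203 they face across the junction of exon 4 to exon 3 and span 146 bases. For 000202 they span 156 bases across the junction of exon 3 to itself, and on the circle of 000203 the same primers span 323 bases, because exon 4 then lies between them. For 000203 the study also lists primers for cloning and sequencing, with an expected size of 701 bases for its exons alone. The divergent primers are shown 5′ to 3′ as listed by the study.
000203 forward: cgcgagggactgacagagt
000203 reverse: agggtccgtgcgaagaag
000202 forward: gccattcaggctcatcaata
000202 reverse: gtctcggtcattccacgact

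By the FC limits of the study (at least 1.5 or at most 0.67 in each step, from DESeq2), 5 of 31 kinesin circRNAs changed and then changed back. Of the 5281 circRNAs as a whole, 81 (1.53%) went up and then down and 227 (4.30%) went down and then up. The 5 were the 2 of Kif26b, Kif21a 002231 and Kif20a 002951, up and then down, and Kif1a 000435, down and then up. Those of Kif26b share exon 3 and were singled out with their values known, so that the 5 cannot be weighed against these shares. Kif21a 002231 had 5.96, 10.2 and 0.929 CPM in PP, 7.92, 10.5 and 9.80 in DP and 0.885, 5.35 and 4.59 in N. PP and DP overlapped, and the log2 FC of 0.59 ± 0.52 (SE) from PP to DP and of -1.22 ± 0.53 from DP to N did not pass edgeR's test (adjusted p = 0.757 and 0.140). The fall passed without PP replicate 3 (adjusted p = 0.0202). Kif1a 000435, the intronic entry, had 8.36 CPM in PP replicate 3 against 2.33 and 1.61 in the other PP libraries, and neither step passed (adjusted p = 0.653 and 0.562). Without PP replicate 2, 8 circRNAs were in these classes, and Kif26b and Kif20a were in them under every setting tried.

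The circRNAs of mitotic kinesins were present in both progenitors and nearly gone from neurons. All 10 mitotic circRNAs that could be tested fell from DP to N, with log2 FCs of -6.96 to -3.35, and from PP to N, with log2 FCs of -7.22 to -3.14. Over the whole table, edgeR's test between N and DP called 18.8% of the 4406 circRNAs tested (9.03% as higher and 9.8% as lower in N). For N against PP it called 28.1% (13.7% as higher and 14.4% as lower). N libraries lay below every DP library for all 10, beside 21.1% of the circRNAs tested, and below every PP library for 9, beside 19.1%. The median log2 FC of the 10 was -4.32 from DP to N, and -3.99 with the 2 at 0 counts in N set to the bound that 3 counts allow, where that of all tested circRNAs was -0.02. From PP to N the median was -4.30, or -3.92 with that bound, against -0.09. Kif14 000080 and 000081 had too few counts to be tested, so that the counts given are over those that passed the filter and not over the 12. Circles this scarce in N pass the filter only through the progenitors, where they are high, so that the number that fell is partly set by the filter and is given as a description. With PP and N alone in the fit 2 of the 10 passed the filter, and with at least 10 counts asked of every library 0 did.

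Kif23, the motor of the centralspindlin complex that bundles microtubules between separating daughter cells, had 4 circRNAs. The most abundant, 006679, was at 10.6, 9.35 and 6.50 CPM in PP, 7.81, 9.49 and 6.20 in DP and 0.443, 0.930 and 0.656 in N. PP and DP overlapped throughout and each N library was below all of them. It had 196 counts in DP and 13 in N, a 10.2-fold difference with a counting interval of 5.84 to 19.5, and its log2 FC fell by 3.35 ± 0.40 (SE, adjusted p = 8.74e-05). Exon 18 alone makes up 006680, which lies within 006679, had at most its counts in each of 9 libraries and fell by 4.11 ± 0.59 (adjusted p = 0.000219). The other two, 006681 and 006682, use exons 8 to 9 and 4 to 7 and share no exon with these. They fell by 3.87 ± 0.70 (adjusted p = 0.00126) and 3.66 ± 0.53 (adjusted p = 0.000241). With at most 1 and 2 counts in an N library, they passed the filter through the progenitors, as did 006680 with at most 1. The p-values of these circRNAs are therefore a description. Circles of 1 gene in the same libraries are not replicates of its fall.

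Kif2c, a motor that takes microtubules apart at centromeres, had 11, 29 and 11 counts of 004280 in PP, 59, 53 and 39 in DP and 0, 1 and 0 in N. With 1 count in N, DP was 102-fold above N over summed counts, with a wide interval of 18.1 to 4070. The log2 FC fell by 6.25 ± 0.63 (SE, adjusted p = 2.90e-05), and was -8.11 without N replicate 2, which held that count. Its inner circRNA 004282, with exons 7 to 8, was the mitotic circRNA with the highest level per length, at 7.23 CPM per kilobase of counted length (RPKM) over the cell types. It fell by 4.91 ± 0.75 (adjusted p = 0.000349). With at most 1 count in an N library, both circRNAs of Kif2c passed the filter through the progenitors. Their p-values are therefore given as a description.

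Kif15, which pushes spindle poles apart, gave 006499 from exons 17 to 20 and 006500 from exons 23 to 26. The latter had 14, 19 and 5 counts in PP, 23, 25 and 16 in DP and 0 in each N library, which makes DP at least 14.5-fold and PP at least 17.6-fold higher than N when N is set to 3 counts over the group. The fall passed the test (adjusted p = 0.000186), as did that of 006499 (log2 FC -4.17 ± 0.72, SE, adjusted p = 0.000906), which had 3 counts in N against 87 in DP. Kif4, a motor on chromosome arms, was likewise at 0 counts in N with 22, 19 and 22 in DP, and DP was at least 14.2-fold above N (adjusted p = 0.00162). In PP it had 11, 18 and 0 counts, so that PP replicate 3 could not be told from N. With at most 2 counts in an N library, the circRNAs of Kif15 and Kif4 passed the filter through the progenitors. Their p-values are therefore given as a description.

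Kif20a, which brings the chromosomal passenger complex to the midzone of dividing cells, was the mitotic circRNA with the largest step from PP to DP. Its 002951 had 6, 8 and 1 counts in PP, 25, 24 and 28 in DP and 0, 0 and 2 in N. DP was above PP in every library by 2.51-fold over summed counts (interval of 1.43 to 4.69), but this did not pass the test (log2 FC 1.34 ± 0.48, SE, adjusted p = 0.254). From DP to N it fell by 4.48 ± 0.69 (adjusted p = 0.000378). With at most 2 counts in an N library, it passed the filter through the progenitors, so that its p-values against N are a description. The fall from PP to N (log2 FC -3.14 ± 0.85, adjusted p = 0.0127) was lost without N replicate 2 (adjusted p = 0.0776). Kif14, which holds citron kinase at the midbody, had few counts. Its 000080 had 10 counts over PP, 16 over DP and 0 over N, and 000081 had 14, 33 and 1. DESeq2, which tested these too, called both lower in N than in DP (log2 FC -4.09 and -4.16, adjusted p = 0.0417 and 0.0166).

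The transport kinesins did not share that pattern. From DP to N, 0 of 11 tested circRNAs of transport genes other than Kif21b passed edgeR's test in either direction, and from PP to N, 6 of 11 rose and 0 fell, beside 13.7% of all tested circRNAs that rose. At an unadjusted p under 0.05, 6 of the 11 were higher and 1 was lower in N than in DP, beside 13.8% and 14.7% of all tested circRNAs. Their log2 FCs from PP to N ranged from -0.63 to 1.51 with a median of 0.83. The 6 were the 4 of Kif5c and 2 of the 3 of Kif1b. For 7 of the 11 the N libraries lay above every PP library, where 36.5% of the circRNAs tested did not overlap between N and PP (17.4% with N higher). With libraries scaled by total counts, which moved the median of all circRNAs between N and PP by -0.28, none of these 6 passed and all remained higher in N.

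Kif5c is the neuronal heavy chain of kinesin-1, the motor that carries many cargoes towards the axon tip. Its 003793, with exons 12 to 16, had 23.3, 16.0 and 5.57 CPM in PP, 24.9, 20.9 and 24.7 in DP and 45.1, 46.9 and 38.9 in N. The N libraries were above all others, while PP replicate 1 lay within the range of DP. The log2 FC was 1.51 ± 0.40 from PP to N (SE, adjusted p = 0.00996) and 0.89 ± 0.38 from DP to N (adjusted p = 0.135).

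The other circRNAs of Kif5c are nested. That of exons 8 to 10 (003792) lies within that of exons 4 to 11 (003791), which lies within that of exons 2 to 11 (003790), and in each of 9 libraries the counts followed this order. 003790 was at 16.3 ± 1.87 CPM in PP, 22.8 ± 1.92 in DP and 36.1 ± 5.23 in N (SD, n = 3), and the cell types did not overlap. These 3 rose from PP to N by 1.15 ± 0.28, 1.13 ± 0.29 and 1.27 ± 0.29 (SE, adjusted p = 0.00716, 0.00878 and 0.00429), and they are not independent, since 003791 held 88.6% of the counts of 003790 and 003792 held 56.7% of those of 003791.

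Kif1b, a carrier of mitochondria and of vesicles for synapses, had 3 circRNAs from different exons, apart from exon 26, which ends 004475 and begins 004474. The level of 004475 was 6.74, 5.97 and 6.50 CPM in PP, 8.03, 6.78 and 8.44 in DP and 12.8, 13.5 and 13.1 in N, so that DP was above PP and N above DP in every library. Its log2 FC from PP to N was 1.04 ± 0.28 (SE, adjusted p = 0.0113), which was lost in 3 of 17 alternatives, among them that without PP replicate 2. That of 004474 was 0.83 ± 0.30 (adjusted p = 0.0492), which was lost in 13 of 17 and is not firm. For 004476 it was 0.68 ± 0.33 and did not pass (adjusted p = 0.148).

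From DP to N the same circRNAs of Kif5c and Kif1b stood close to the threshold. The N libraries were above every DP library for 6 of the 11 and below for the 2 of Kif21a, where 38.8% of all tested circRNAs did not overlap (17.7% with N higher). The 6 had log2 FCs of 0.66 to 0.89 and adjusted p from 0.0577 to 0.135. DESeq2 called 4 of them higher in N (Kif5c 003790 and 003791, Kif1b 004474 and 004475). Without PP replicate 3, the library with the lowest scaled size, which is not part of this contrast but enters the shared spread, edgeR called 18 kinesin circRNAs between N and DP in place of 10, and the share called over the whole table rose likewise, to 26.4%. Those 18 held all 6 as higher and 12 as lower, the latter now with Kif14 000081 and Kif21a 002231.

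**Figure D4:**
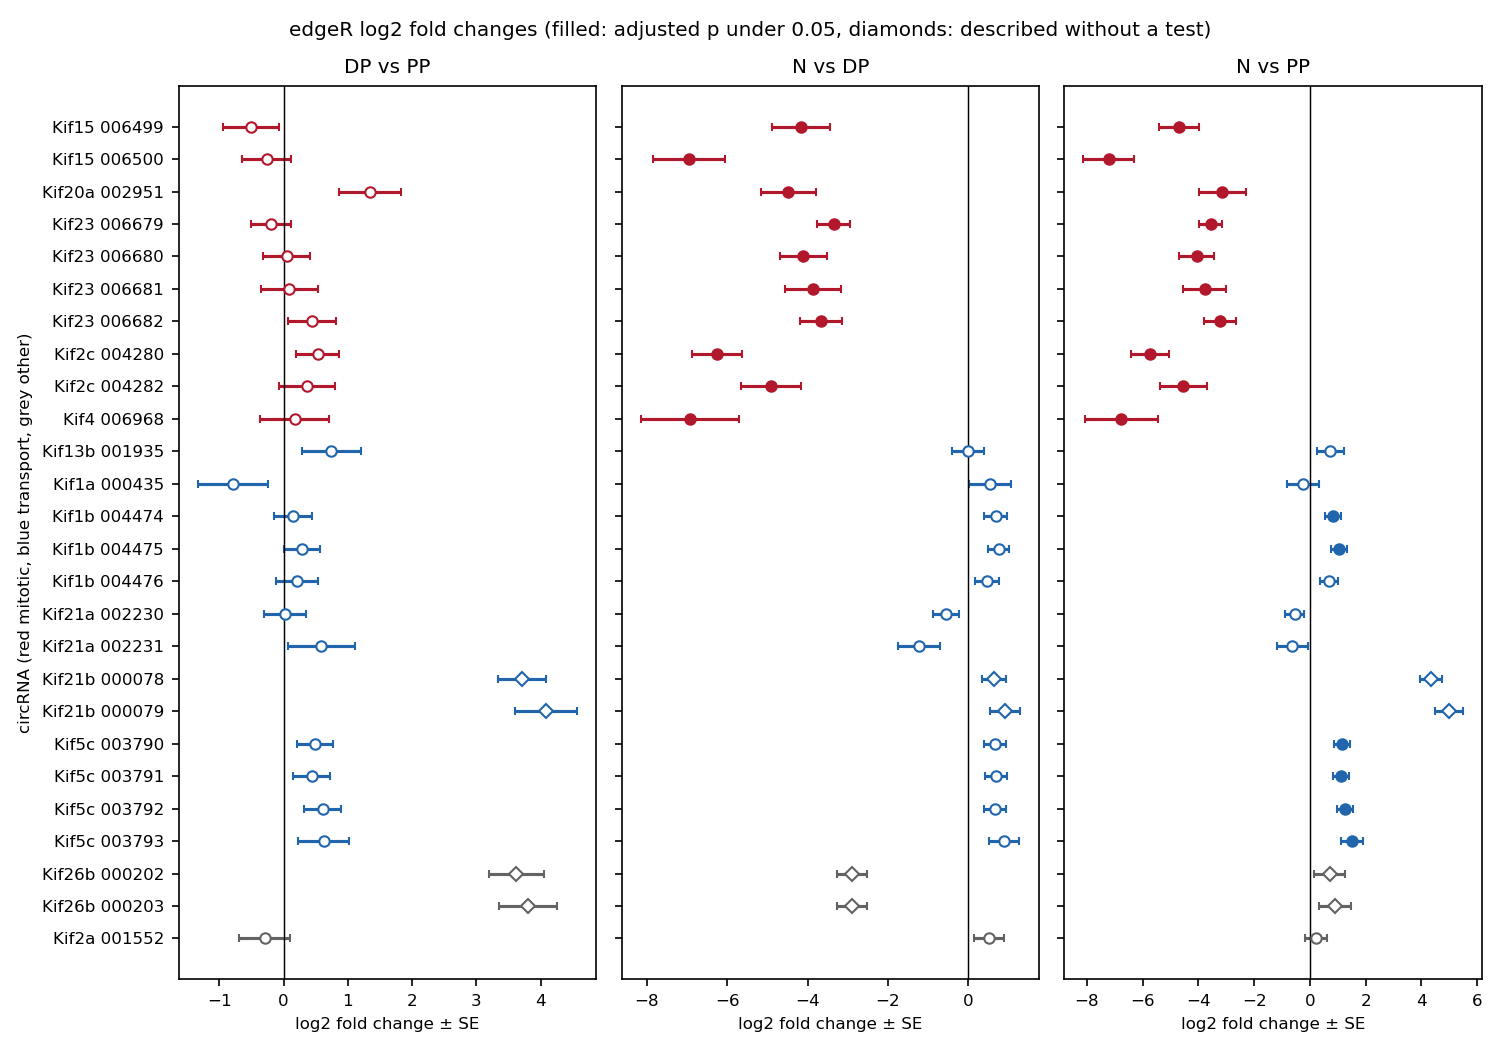
edgeR log2 FC ± SE of the 26 tested kinesin circRNAs (rows) in the 3 comparisons (panels). Filled symbols passed an adjusted p of 0.05, and diamonds mark Kif21b and Kif26b, which were not tested; mitotic circRNAs (red) lie at -3.14 or below in N against either progenitor, and transport circRNAs (blue) other than Kif21b lie between -1.22 and 1.51.

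The remaining members changed little or were scarce. Kif13b, known for carrying scaffold proteins to the membrane, was at 1.73 ± 1.22, 3.35 ± 0.237 and 3.70 ± 1.78 CPM (SD, n = 3) in PP, DP and N and passed in no comparison, the smallest adjusted p being 0.293 between N and PP. Kif21a 002230 was at 4.85 ± 1.42, 5.06 ± 0.519 and 3.24 ± 0.944 CPM (adjusted p = 0.290 between N and DP). Kif2a, which trims microtubules at spindle poles and in growing axons, had 2.12 ± 0.573, 1.63 ± 0.340 and 2.25 ± 0.453 CPM, with cell types that overlapped. Kif16b, a motor of early endosomes, and Kif24, which acts at centrioles, had at most 6 and 4 counts of a circRNA in any library and were not tested. The members not tested for too few counts were these 3 circRNAs and the 2 of Kif14.

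Between DP and PP, 0 of the 22 tested circRNAs of Kif genes other than Kif21b and Kif26b passed edgeR's test, where 1.86% of all tested circRNAs did (1.48% as higher and 0.386% as lower in DP). DP libraries lay above every PP library for 6 of the 22 and below for 0, beside 19.3% of circRNAs that did not overlap (10.9% with DP higher and 8.37% with DP lower). At an unadjusted p under 0.05 there was 1, Kif20a, beside 11.5% of all tested circRNAs, and DESeq2 called 0, beside 2.20%. The median log2 FC was 0.13 over 10 mitotic circRNAs and 0.43 over the 11 of transport genes other than Kif21b, beside -0.06 over all. Leaving out both shallow libraries gave 1 call, Kif5c 003792 (log2 FC 0.76, adjusted p = 0.0155), where 14.0% of all circRNAs tested were then called.

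The most abundant circRNA of each gene was summed per library, to compare cell types within each list and not the lists with each other. For the 6 mitotic genes the sum was 15.3 to 26.0 CPM in PP, 22.6 to 27.2 in DP and 0.443 to 1.31 in N. For the 6 transport genes other than Kif21b it was 31.1 to 58.4 in PP, 57.8 to 64.2 in DP and 83.5 to 96.9 in N. The mean of the mitotic sum was 24.3 CPM in DP and 1.01 in N, and that of the transport sum was 61.4 and 91.5. The latter rise came mainly from Kif5c 003793 (23.5 CPM in DP and 43.7 in N) and Kif1b 004474 (22.6 and 36.4). Kif21a 002231 fell from 9.40 to 3.61, and Kif1a, Kif13b and Kif16b had means of 3.70 CPM or less in both. The rise is therefore not one of the whole list.

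Levels of different circRNAs can be compared only per length. Over the cell types, Kif21b 000079 was highest at 76.4 RPKM, above 99.1% of all circRNAs, followed by Kif1b 004476 (40.7 RPKM), Kif21b 000078 (35.3) and Kif5c 003793 (34.7). The order depended on the cell type. In PP, Kif1b 004476 led with 32.0 ± 3.58 RPKM (SD, n = 3), then Kif1b 004475 (20.1 ± 1.25), Kif5c 003793 (18.9 ± 11.3) and Kif21a 002230 (17.0 ± 4.98), and the latter 3 lay within one another's spread, and both of Kif21b were at 3.12 to 4.92. In DP, Kif21b 000079 led with 77.2 ± 16.7 RPKM, and Kif21b 000078 (40.0 ± 7.33) and Kif1b 004476 (37.3 ± 9.60) came next and did not differ beyond their spread. The gap between the circRNAs of Kif21b in DP rests on the counted length of 000078, which includes an intron. Before division by length they were at 28.6 ± 5.24 CPM (000078) and 29.9 ± 6.48 CPM (000079) in DP, within one another's spread. In N, Kif21b 000079 reached 147 ± 71.3 RPKM, followed by Kif21b 000078 (62.8 ± 17.6), Kif5c 003793 (55.3 ± 5.35) and Kif1b 004476 (52.7 ± 10.3), which lay within one another's spread.

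At the other end, Kif16b 003469 was lowest at 1.18 RPKM, above 1.72% of all circRNAs, below Kif24 004578 (1.88) and Kif14 000081 (2.05). Of the genes in neither list, Kif2a was highest at 9.35 RPKM. In DP, Kif26b 000202 was at 13.5 ± 3.38 RPKM, close to Kif2c 004282 at 11.8 ± 2.45. Among the 10 highest circRNAs by RPKM, all were of transport genes.

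These levels rest on the length over which reads were counted. For 7 of the 30 exonic kinesin circRNAs the counted length was that of the exons and 1 intron, after allowing for the 1 base that the table adds for each separate block, whereas 531 of 5097 (10.4%) over the table were counted with 1 or more introns. They were Kif21b 000078 (an intron of 308 bases), Kif21a 002231 (107), Kif20a 002951 (89), the nested circRNAs of Kif5c (351 in each of the 3) and Kif1b 004474 (1436). For Kif1b 004474 the intron was longer than its exons, which sum to 1151 bases, and its level of 10.2 RPKM ranked 11 of 31 by counted length and 9 by exon length. Kif21b 000078, with 406 exonic bases in a counted length of 715, ranked 3 by counted length and 2 by exon length, then above Kif1b 004476. In the genic circRNAs that the study cloned, it detected the exons but no intron. It proposed that reads on introns may come from lariats, and it left introns out of its later analyses but kept them among its expressed features. Whether reads on the introns of these 7 belong to the circRNA was not tested here.

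Kif21a and Kif21b offer a comparison of the same exons in paralogous genes. Both formed a circRNA of exons 2 to 3, each with 406 exonic bases. The exonic circles were identical at 283 positions (69.7%) in an ungapped alignment, with no identical run longer than 15 bases. The introns counted with both were not compared, and whether reads were assigned to the wrong paralogue was not tested. In PP, Kif21a 002231 was at 11.1 ± 8.99 RPKM and Kif21b 000078 at 3.12 ± 0.698. The order in PP held in replicates 1 and 2 but not in PP replicate 3, with 1.81 RPKM for Kif21a and 3.90 for Kif21b. In N, Kif21a 002231 was at 7.02 ± 4.65 and Kif21b 000078 at 62.8 ± 17.6 RPKM, and Kif21b was above in each library. From PP to N, Kif21a 002231 did not pass the test (log2 FC -0.63 ± 0.55, SE, adjusted p = 0.451).

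The patterns most like those of Kif21b and Kif26b were sought among the 2203 tested circRNAs at or above the median level, as Pearson's r of log2(CPM + 1) over the 9 libraries, which share the same depth and scaling for each circRNA. Nearest to Kif21b 000079 were circRNAs of Srrm4, a neuronal splicing factor (004811, r = 0.976), Anks1 (002544, r = 0.973) and Plxna2, a semaphorin receptor (000254, r = 0.973). Plxna2 went from 13.0 ± 2.40 CPM in PP to 55.3 ± 13.3 in DP and 90.0 ± 25.4 in N (SD, n = 3). Nearest to Kif26b 000202 were circRNAs of Elavl4, a neuronal RNA-binding protein (004254, r = 0.905), Mfng, which modifies Notch (002131, r = 0.896), and Cecr2 (005314, r = 0.896). Elavl4 was at 5.80 ± 0.688, 18.9 ± 0.771 and 9.95 ± 2.48 CPM and Mfng at 2.74 ± 0.865, 9.66 ± 1.01 and 2.16 ± 1.11, so that Mfng in N was within the spread of its level in PP and Elavl4 was not.

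Motors act with light chains, adaptors, dynein and spindle proteins, and 28 of 63 such partner genes had circRNAs in the table, 70 in all, of which 65 were tested. From DP to N, 30 fell and 6 rose, beside 9.8% and 9.03% of all tested circRNAs, with a median log2 FC of -0.90. The number that rose is near the share over the whole table. From PP to N, 33 fell and 5 rose, beside 14.4% and 13.7%, with a median of -1.13. As for the mitotic kinesins, circles scarce in N pass the filter only through the progenitors, so that the numbers that fell are a description. With PP and N alone in the fit 53 partner circRNAs passed the filter, and with at least 10 counts asked of every library 13 did. Some genes gave more than 1 circRNA, and whether these share reads was not tested. With libraries scaled by total counts 27 fell and 0 rose in either comparison, so that no rise of a partner passed under that scaling. From PP to DP, edgeR called 0, beside 1.86% of all tested circRNAs, and 3 had an unadjusted p under 0.05, beside 11.5%. DESeq2 called 0, beside 2.20%.

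The 6 that rose from DP to N, and were lost with total-count scaling, came from 2 genes. Klc1, a light chain of kinesin-1 and partner of Kif5c, had 3 circRNAs, of which 001282 went from 23.1 CPM in DP to 59.6 in N (log2 FC 1.36, adjusted p = 0.00535). Kifap3, the accessory subunit of kinesin-2, had 3, of which 000148 rose by 1.94 (adjusted p = 0.00673). Those that fell were of spindle and cytokinesis genes, apart from 3 of Dync2h1, the dynein of cilia, and 1 of Nde1, a dynein regulator. Ckap5, a spindle gene that promotes microtubule growth, had 11 tested circRNAs, the most of any partner gene, and none passed from DP to N (log2 FCs of -1.36 to -0.36, adjusted p from 0.0744 to 0.518). From PP to N, its 003892, 003893, 003894, 003895 and 003898 passed as lower (log2 FCs of -1.22 to -1.02, adjusted p from 0.00956 to 0.0254). Racgap1, which forms centralspindlin with Kif23, had 5 circRNAs that all fell, with log2 FCs of -3.05 to -2.56. Prc1, which recruits Kif4 to the midzone, was at 0 CPM in N against 4.16 in DP (adjusted p = 5.70e-05). Spag9 with 7 tested circRNAs, Trak1 with 2, and Hook3, Bicd1 and Mapk8ip3 with 1 each, which link motors to cargo, passed in neither direction from DP to N, while Trak1 006492 rose from PP to N (log2 FC 1.48, adjusted p = 0.00613).

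**Figure D5:**
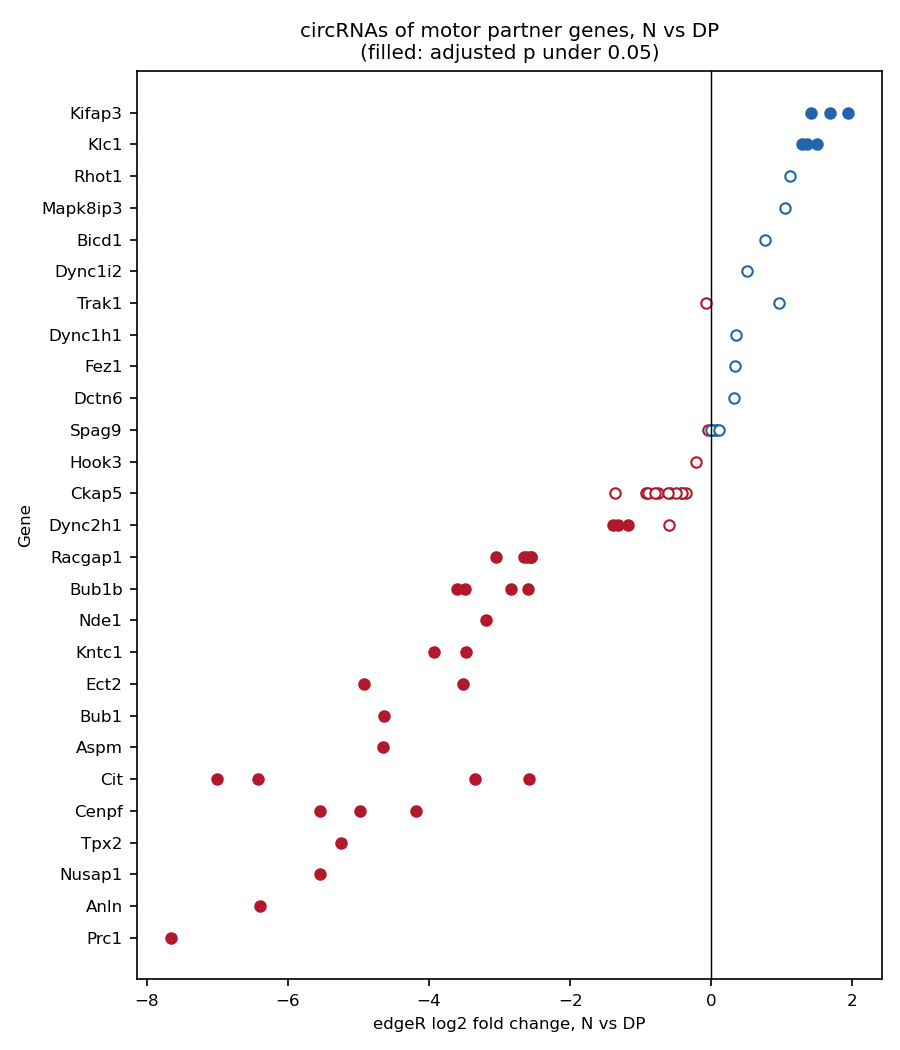
edgeR log2 FC from DP to N of the 65 tested circRNAs of motor partner genes (x axis), with genes on the y axis in order of their median. Filled points passed an adjusted p of 0.05; 30 lie to the left and the 6 on the right are of Klc1 and Kifap3.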

How the data were processed

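RNA of 9 sorted samples (3 biological replicates each of PP, DP and N) was treated with RNase R, without enrichment of mRNA, and sequenced from strand-specific libraries. The authors aligned reads to mm9 with gsnap, called circRNAs with find_circ and deposited 1 table of counts per circRNA, made with featureCounts (Subread 1.6.0 in the submitters' processing notes) over its expressed features, not normalized. Counts therefore include reads away from the junction, which linear RNA left by RNase R can also give.

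All 5281 circRNAs were scaled by TMM, 4406 passed filterByExpr, and 1 quasi-likelihood model over the 9 libraries gave the 3 contrasts (edgeR 4.0.16, R 4.3.3, Benjamini-Hochberg adjustment over all tested circRNAs, threshold 0.05). The contrasts share libraries. DESeq2 1.42.0 gave the FC classes and an alternative test. Ratios of summed counts have exact conditional binomial intervals at 95%. RPKM is CPM per kilobase of counted length. Exons are those of GENCODE vM1 on mm9, of a transcript that has both ends as exon ends. Among such transcripts the one whose exons came closest to the counted length was taken, and ties went to the longest coding sequence. The test was tried on simulated data. Figures were drawn with matplotlib 3.10.9.

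The members and lists were chosen with earlier results of these data known. Named circRNAs were those of Kif21b and Kif26b, those of other Kif genes that passed in a contrast (at most 20), the highest and lowest of each list by RPKM, the 3 nearest patterns of Kif21b and Kif26b, and those with primers in the study. Alternatives were another tool, scaling or filter, a replicate block, fits of 2 cell types and each library left out. Leaving out both shallow libraries and the use of exon length were chosen after seeing the data.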

Additional observations from a re-analysis of the deposited data

How the results depend on the processing

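No result changed direction under any alternative. Calls between N and DP, 10 for the kinesin circRNAs other than Kif21b and Kif26b, were 16 with DESeq2, 0 with a minimum of 10 counts in every library, which left 7 to test, and 18 without both shallow libraries (10 to 18 with 1 library left out). Those between N and PP, 16, were 10 with total-count scaling, 4 with the minimum of 10 counts and 5 with 2 cell types in the fit (14 to 16 with 1 library left out). Between DP and PP they were 1 without both shallow libraries. The partners' 0, 36 and 38 calls between DP and PP, N and DP, and N and PP became 1 without both shallow libraries, 3 with the minimum of 10 counts, and 6 with that minimum or 23 with 2 cell types, with ranges of 30 to 41 and 33 to 42 for N against DP and PP when 1 library was left out.

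The median log2 FC of the mitotic circRNAs from DP to N was -4.47 with DESeq2, -4.65 with total-count scaling and -4.46 without both shallow libraries (-4.47 to -4.26 with 1 left out). From PP to N it was -4.43, -4.55 and, with 2 cell types, which left 2 of the 10 to test, -4.64 (-4.59 to -4.21 with 1 left out), and from PP to DP it was 0.12 to 0.25 with 1 left out. For all transport circRNAs, Kif21b included, the median from PP to DP was 0.34 with the minimum of 10 counts and 0.32 without both shallow libraries (0.31 to 0.58). From DP to N it was 0.28 with total-count scaling and 0.48 without both shallow libraries (0.49 to 0.69), and from PP to N 0.78 with total-count scaling and 0.93 with the minimum of 10 counts (1.03 to 1.08). Circles that changed and changed back by FC numbered 4 to 8 with 1 library left out.

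Replicate numbers showed no sign of pairing the samples. Deviations of same-numbered samples from their group means correlated at -0.0329 on average (-0.238 to 0.281), and those of different numbers at 0.0240. With so few samples this cannot exclude that some were paired. With the replicate block, 0, 10 and 15 kinesin circRNAs were called between DP and PP, N and DP, and N and PP. Over the whole table the shares called with it were 1.09%, 15.8% and 24.1%. The median of the mitotic circRNAs from DP to N was then -4.38. Depth limits the scarce members: 3 counts are 1.39 CPM in PP replicate 3 and 1.33 in N replicate 1, so that a fall within this range was not detectable there. With no junction reads in the table, reads of linear RNA and of overlapping circles could not be told apart.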
